A study of Homo sapiens with 14 samples.

Results

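Teneurins and latrophilins are 2 families of cell surface proteins that bind each other across cell contacts. The 7 genes described here are the teneurins TENM1, TENM2, TENM3 and TENM4 and the latrophilin receptors ADGRL1, ADGRL2 and ADGRL3. They were chosen by name and matched by symbol to 7 of the 18006 genes in the count table. TENM1 was chosen because it rose in both knockdowns of these same libraries, so its levels against control, and between the knockdowns, are given below as a description with no test. Of the 7 genes, 5 passed the filter on low counts, TENM2 had too few reads and ADGRL2 is listed at 0 in every library.

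RNA was sequenced from HEK 293 cells, an established line derived from human embryonic kidney, in 14 libraries. The groups were knockdown of CFIm25 by small interfering RNA (n = 2), knockdown of CFIm68 by small interfering RNA (n = 3), overexpression of CFIm25 (n = 3), overexpression of CFIm68 (n = 3) and control cells labelled wild type (n = 3). The NUDT21 gene encodes CFIm25 and the CPSF6 gene encodes CFIm68, both parts of cleavage factor I, which binds UGUA motifs in pre-mRNA upstream of cleavage sites and influences which polyadenylation site is used. The promoter of the overexpression constructs, the number of clones and whether control cells received a control siRNA or empty vector are not stated. Nothing says that replicates came from separate cultures, and the p-values below cover only how far these libraries spread, which may be technical. In bulk RNA, fewer cells of a kind and less RNA per cell cannot be told apart.

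Teneurins are single-pass membrane proteins with a very large extracellular part that carries EGF-like repeats, a beta-propeller and a barrel of tyrosine-aspartate repeats. Latrophilins are adhesion G protein-coupled receptors, named for the binding of ADGRL1 to the spider toxin alpha-latrotoxin. Pairs of the 2 families link the membranes of neighbouring neurons, and latrophilins also bind the FLRT leucine-rich repeat proteins. Both families are best known from axon guidance and synapse formation in the brain.

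All 7 genes are protein-coding in the GENCODE 29 annotation (hg38). TENM1 lies on chromosome X (124375903 to 124963817, minus strand), TENM2 on chromosome 5 (167284799 to 168264157, plus), TENM3 on chromosome 4 (182143987 to 182803024, plus) and TENM4 on chromosome 11 (78652831 to 79440948, minus). ADGRL1 lies on chromosome 19 (14147743 to 14206187, minus), ADGRL2 on chromosome 1 (81306160 to 81992436, plus) and ADGRL3 on chromosome 4 (61201258 to 62078335, plus). ADGRL1 is the compact member, spanning 58445 bases, whereas the other 6 genes span 587915 to 979359 bases. Their merged exons cover 7754 to 16330 bases.

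The longest annotated 3' UTR of each gene was searched for TGTA, the DNA form of the cleavage factor I motif, on the transcribed strand with overlaps allowed. The 3' UTRs were 4633 bases long in TENM1, 2673 in TENM3, 5227 in TENM4, 3130 in ADGRL1 and 8166 in ADGRL3, against a median of 1347 bases over 15239 protein-coding genes of the table with a 3' UTR of at least 200 bases. TGTA occurred 33 times in TENM1 (7.12 per kb), 23 times in TENM3 (8.61 per kb), 23 times in TENM4 (4.40 per kb), 9 times in ADGRL1 (2.88 per kb) and 43 times in ADGRL3 (5.27 per kb), and the median over those genes was 4.84 per kb. In the last 150 bases of the transcript, where 66.7% of those genes hold at least 1 TGTA, TENM3 had 2, ADGRL3 had 3, TENM1 and TENM4 had 1 each and ADGRL1 had none. The 30-base windows with the most TGTA in that stretch are shown for the tested members that have one, because TGTA is the motif of the complex that was manipulated. They are written 5′ to 3′ from the GENCODE 29 transcripts, with TGTA in capitals, and lie at chrX:124375980-124376009 (minus strand), chr4:182802893-182802922 (plus), chr11:78652831-78652860 (minus) and chr4:62078268-62078297 (plus).
TENM1: cacaacaacatgcTGTAaatatttaaagtt
TENM3: gagaTGTAaattttgtctgattTGTAttgt
TENM4: ctttaaaaataaatgacTGTAtattcatca
ADGRL3: aatgctcTGTAcaatcacaTGTAaagtcat
A match is a description of the letters and not a measured binding site, and counts per gene do not show which polyadenylation site was used.

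Libraries held 22464083 and 33895308 counts in CFIm25 knockdown, between 24119597 and 28963694 in CFIm68 knockdown, between 16437307 and 23125253 in CFIm25 overexpression, between 15822467 and 18297610 in CFIm68 overexpression and between 17734490 and 18385536 in control. NUDT21 stood at 53.8 ± 1.20 CPM (counts scaled by library size and TMM factor, mean ± SD) in CFIm25 knockdown and 729 ± 55.6 CPM in CFIm25 overexpression, against 514 ± 19.6 CPM in control, and CPSF6 stood at 41.6 ± 0.996 CPM in CFIm68 knockdown and 730 ± 17.4 CPM in CFIm68 overexpression, against 268 ± 5.78 CPM in control, so each targeted gene went the way of its label. NUDT21 was also at 232 ± 9.27 CPM in CFIm68 knockdown, and CPSF6 at 533 ± 10.2 CPM in CFIm25 knockdown, so each knockdown also moved the other subunit's gene. All 7 markers of the HEK 293 line had counts, summing to 878 to 1304 CPM per library. Most of that sum was VIM (group means 490 to 866 CPM) and NEFL (209 to 302 CPM). LHX1 averaged 0.512 to 1.40 CPM, and NEFM was near the floor in CFIm68 overexpression (0.1385 CPM). Among 9 mature kidney markers, 3 were at 0 in every library. The kidney list summed to 151 to 199 CPM, mostly from LRP2 (group means 152 to 187 CPM). The 6 blood markers, 3 of them at 0 in every library, summed to at most 0.348 CPM. The 4 neuronal markers, 1 of them at 0 in every library, summed to 1.02 to 2.09 CPM. Zeros in every library, here and in the other lists, are given as listed, since their reason is not stated. Keratinocyte and HeLa-type markers, mostly CDH3, summed to 46.9 to 66.4 CPM in the 4 manipulated groups and 42.0 to 49.9 CPM in control. Mesenchymal markers, mostly COL1A1, summed to 66.4 to 68.6 CPM in CFIm68 knockdown and 25.3 to 28.7 CPM in CFIm68 overexpression, against 50.9 to 55.4 CPM in control. Their part in the results below was not tested.

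Per kilobase of exon, ADGRL1 was the most abundant member in all 5 groups. Its mean was 23.1 RPKM in CFIm25 knockdown, 25.9 in CFIm68 knockdown, 24.1 in CFIm25 overexpression, 18.9 in CFIm68 overexpression and 17.5 in control. ADGRL3 followed ADGRL1 in control at 1.89 RPKM, ahead of TENM1 at 0.692, TENM3 at 0.312 and TENM4 at 0.0444 RPKM. In both knockdowns TENM1 stood above ADGRL3, at 2.82 RPKM for TENM1 and 2.04 RPKM for ADGRL3 in CFIm25 knockdown and at 2.98 RPKM for TENM1 and 2.27 RPKM for ADGRL3 in CFIm68 knockdown. Merged exons of all annotated isoforms were used as the length, so these levels are approximate. Across the 5 groups the highest mean was 4.31 times the lowest for TENM1, 1.48 times for TENM3, 1.40 times for TENM4, 1.47 times for ADGRL1 and 1.41 times for ADGRL3. The median of this ratio over the 12080 tested genes was 1.52. TENM1 was chosen for its rise in the knockdowns, so its wide ratio follows from that choice.

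**Figure D1:**
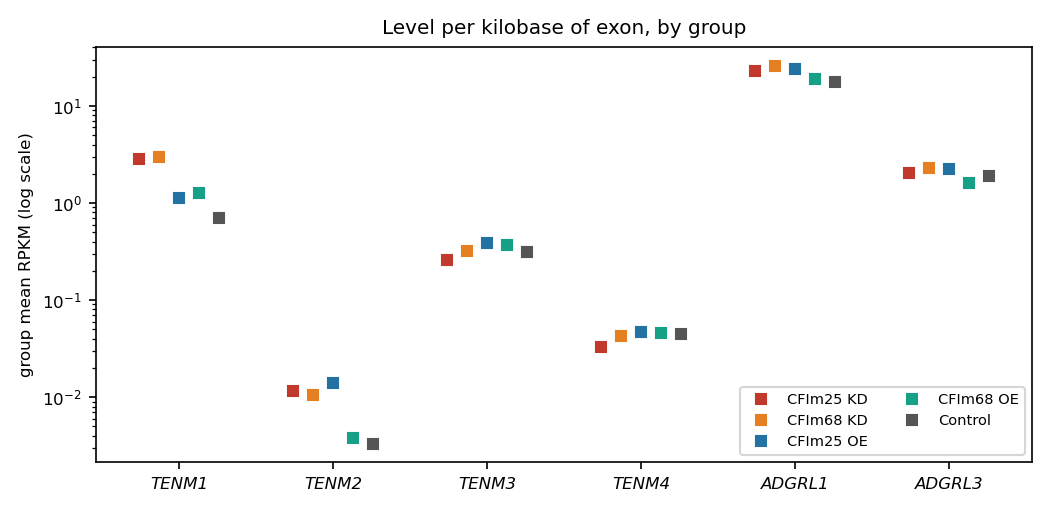
Group mean RPKM on a log scale (vertical axis) for the 6 members with at least 1 count, with 1 square per group. ADGRL1 lies between 17.5 and 25.9 RPKM in every group. TENM1, chosen for its rise in both knockdowns, spreads most among the tested members. The squares of TENM2 rest on 0 to 7 counts per library, too few to compare.

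TENM1 encodes a teneurin that is X-linked and prominent in the nervous system. Its scaled level was 35.8 and 37.0 CPM in the CFIm25 knockdown libraries, and 36.9, 40.6 and 37.8 CPM in the CFIm68 knockdown libraries. It was 14.5, 15.1 and 14.4 CPM in CFIm25 overexpression, 15.8, 17.0 and 16.2 CPM in CFIm68 overexpression, and 7.60, 11.2 and 7.98 CPM in control. The 5 knockdown libraries were the highest and the 3 controls the lowest, and all 6 overexpression libraries lay between them without overlap. The 2 knockdowns overlapped each other, whereas CFIm68 overexpression lay wholly above CFIm25 overexpression. In reads, TENM1 had 788 and 1237 counts in CFIm25 knockdown and 935 to 1083 in CFIm68 knockdown, against 134 to 205 in control.

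Relative to control, the log2 change of TENM1 was 2.03 ± 0.10 (SE) in CFIm25 knockdown, 2.10 ± 0.09 in CFIm68 knockdown, 0.71 ± 0.11 in CFIm25 overexpression and 0.87 ± 0.11 in CFIm68 overexpression. These 4 values share the 3 controls against which TENM1 was chosen, so no p is given for them. Control replicate 2 stood above the other controls, and without it the 4 changes were 2.22, 2.30, 0.91 and 1.07. TENM1 thus stood higher than control in all 4 manipulated groups. Whether control cells received a control siRNA or empty vector is not stated. A difference common to every manipulated group therefore cannot be told apart from an effect of the subunits.

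The direct comparisons set the knockdowns against each other and the overexpressions against each other. They do not isolate a single subunit. NUDT21 also changed in CFIm68 knockdown (log2 change -1.145) and CPSF6 in CFIm25 knockdown (0.99). NUDT21 also rose in CFIm68 overexpression (0.22, edgeR adjusted p = 0.00488). TENM1 averaged 38.5 ± 1.92 CPM in CFIm68 knockdown (SD, n = 3) and 36.4 ± 0.897 CPM in CFIm25 knockdown (SD, n = 2). The log2 change was 0.08 with a 95% interval of -0.10 to 0.25, and no p is given because a rise in both knockdowns was the basis for choosing TENM1. TENM1 averaged 16.4 ± 0.611 CPM in CFIm68 overexpression and 14.7 ± 0.370 CPM in CFIm25 overexpression (SD, n = 3 each). The log2 change was 0.16 with a 95% interval of -0.04 to 0.36, which did not pass (edgeR quasi-likelihood p adjusted by Benjamini-Hochberg = 0.159).

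TENM1 shares 241 exonic bases with STAG2, a cohesin subunit gene on the opposite strand. The library kit keeps strand, but whether the counting used strand is not stated. STAG2 averaged 537 CPM in CFIm25 knockdown, 417 in CFIm68 knockdown, 715 in CFIm25 overexpression, 545 in CFIm68 overexpression and 530 in control. Its log2 change was 0.02 ± 0.07 in CFIm25 knockdown, -0.34 ± 0.06 in CFIm68 knockdown, 0.43 ± 0.06 in CFIm25 overexpression and 0.04 ± 0.06 in CFIm68 overexpression. STAG2 was lower than control in CFIm68 knockdown (edgeR adjusted p = 1.95e-05) and higher in CFIm25 overexpression (edgeR adjusted p = 5.71e-07), and its part in the TENM1 counts was not tested.

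**Figure D2:**
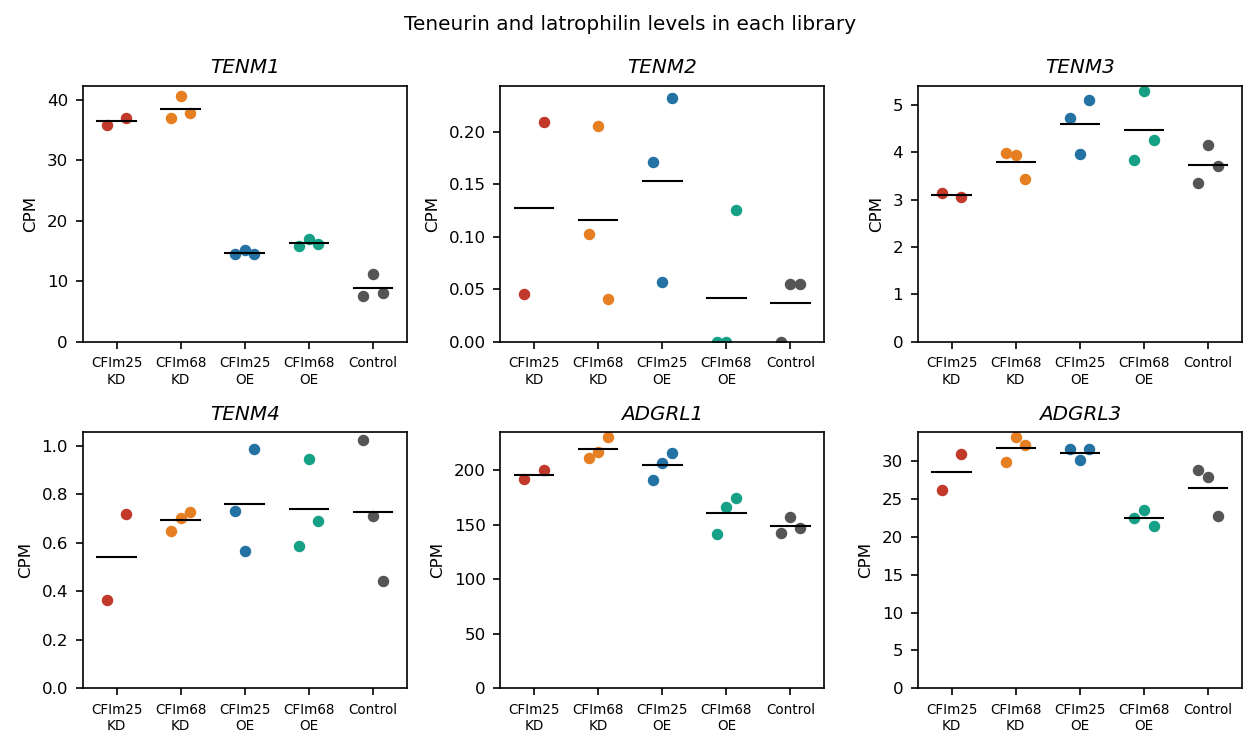
CPM (vertical axis, from 0) of each library as a point, with the group mean as a line, for the 6 members with at least 1 count. TENM1 shows 3 separate tiers, with knockdown libraries at 35.8 to 40.6 CPM, overexpression libraries at 14.4 to 17.0 CPM and controls at 7.60 to 11.2 CPM.

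TENM2 encodes a teneurin described as a high-affinity ligand of ADGRL1. It had 1 and 7 counts in the CFIm25 knockdown libraries, 3, 5 and 1 in CFIm68 knockdown, 4, 1 and 4 in CFIm25 overexpression, 0, 0 and 2 in CFIm68 overexpression and 0, 1 and 1 in control. These counts are too few for a test. A count of 0 allows up to 3 counts, which is 0.0898 to 0.195 CPM in these libraries, for counting error alone.

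TENM3, a teneurin known for matching presynaptic and postsynaptic partners in hippocampal circuits, was at 3.13 and 3.06 CPM in CFIm25 knockdown and at 3.99, 3.95 and 3.44 CPM in CFIm68 knockdown. It was at 4.72, 3.96 and 5.10 CPM in CFIm25 overexpression, at 3.83, 5.29 and 4.27 CPM in CFIm68 overexpression and at 3.35, 4.15 and 3.71 CPM in control. The CFIm25 knockdown libraries were the lowest and did not overlap control, but the difference did not pass in any of the 6 comparisons. The interval of the log2 change was -0.63 to 0.07 in CFIm25 knockdown, -0.29 to 0.33 in CFIm68 knockdown, -0.02 to 0.61 in CFIm25 overexpression and -0.06 to 0.59 in CFIm68 overexpression (edgeR adjusted p = 0.189, 0.911, 0.0997 and 0.22). Both knockdown intervals of TENM3 end below the log2 changes of TENM1 there. TENM1 was chosen for that rise, so this is a description and no test of a difference between the genes. TENM3 passed as higher in CFIm25 overexpression when CFIm25 overexpression replicate 2 was left out (0.39, edgeR adjusted p = 0.0478).

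TENM4, a teneurin with a role in myelination, had 8 and 24 counts in the CFIm25 knockdown libraries, 19, 17 and 18 in CFIm68 knockdown, 17, 10 and 17 in CFIm25 overexpression, 9, 17 and 11 in CFIm68 overexpression and 18, 13 and 8 in control. All groups overlapped, at 0.363 to 1.02 CPM over the 14 libraries, and no comparison passed. At this depth the intervals were wide, with log2 changes of -1.11 to 0.45 in CFIm25 knockdown and -0.76 to 0.62 in CFIm68 knockdown, so a change of less than about that size was not detectable.

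ADGRL1, the latrotoxin receptor that gave the family its name, was raised in both knockdowns and in CFIm25 overexpression. It stood at 192 and 200.2 CPM in CFIm25 knockdown, at 211, 216 and 230.4 CPM in CFIm68 knockdown, at 191, 206 and 216 CPM in CFIm25 overexpression, at 141, 166 and 174 CPM in CFIm68 overexpression and at 142, 157 and 147 CPM in control. The first 3 of these groups lay wholly above CFIm68 overexpression and control, which overlapped. Within them CFIm25 overexpression overlapped both knockdowns, and CFIm68 knockdown lay wholly above CFIm25 knockdown. The rise was 1.32-fold in CFIm25 knockdown (log2 change 0.40 ± 0.07, edgeR adjusted p = 3.33e-05), 1.47-fold in CFIm68 knockdown (0.56 ± 0.06, adjusted p = 1.84e-08) and 1.37-fold in CFIm25 overexpression (0.46 ± 0.06, adjusted p = 6.68e-07). In CFIm68 overexpression the log2 change was 0.11 with an interval of -0.02 to 0.24 and did not pass (edgeR adjusted p = 0.211). ADGRL1 shares 473 exonic bases with an antisense gene that has no row in the table.

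CFIm68 overexpression was lower than CFIm25 overexpression in ADGRL1, at 161 ± 17.2 CPM and 205 ± 12.7 CPM (SD, n = 3 each; log2 change -0.35 ± 0.06, edgeR adjusted p = 2.60e-05). The 50 tested genes nearest to ADGRL1 on chromosome 19 had a median log2 change of -0.31 in the same comparison. With the median of those neighbours removed from each library, the difference of ADGRL1 was -0.05 and did not pass (limma adjusted p = 0.46). In CFIm68 overexpression against control the neighbours had a median of -0.20, and with them removed ADGRL1 passed as higher (0.32, limma adjusted p = 7.94e-05). It also passed there when CFIm68 overexpression replicate 1 was left out (0.19, edgeR adjusted p = 0.0176). In the other 3 comparisons with control ADGRL1 passed under every alternative that was run, with 0.35, 0.43 and 0.37 once the neighbours were removed for CFIm25 knockdown, CFIm68 knockdown and CFIm25 overexpression.

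In the direct comparison of the knockdowns, ADGRL1 averaged 219 ± 9.92 CPM in CFIm68 knockdown and 196 ± 5.59 CPM in CFIm25 knockdown. The libraries did not overlap, but the log2 change of 0.16 ± 0.07 did not pass (edgeR adjusted p = 0.0959). It passed when only these 2 groups were fitted (edgeR adjusted p = 0.00613) and when CFIm68 overexpression replicate 1 was left out (edgeR adjusted p = 0.0437).

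ADGRL2, a latrophilin that takes part in synapse assembly, is listed at 0 counts in all 14 libraries. HSPA8, a chaperone gene used by every cell, is also listed at 0 in all of them, and the reason for either zero is not stated. The zeros are therefore reported as listed, with no statement on expression of ADGRL2.

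ADGRL3, a latrophilin that binds FLRT3, stood at 26.2 and 30.9 CPM in CFIm25 knockdown, at 29.8, 33.2 and 32.2 CPM in CFIm68 knockdown, at 31.5, 30.1 and 31.5 CPM in CFIm25 overexpression, at 22.5, 23.5 and 21.5 CPM in CFIm68 overexpression and at 28.8, 27.9 and 22.7 CPM in control. Control replicate 3 stood below the other controls, within the range of CFIm68 overexpression. ADGRL3 was 1.20-fold higher in CFIm68 knockdown (log2 change 0.26 ± 0.08, edgeR adjusted p = 0.00797) and 1.17-fold higher in CFIm25 overexpression (0.23 ± 0.08, adjusted p = 0.0196). Both calls were lost without control replicate 3 (0.16 and adjusted p = 0.0982 in CFIm68 knockdown, 0.13 and adjusted p = 0.184 in CFIm25 overexpression), and the call in CFIm25 overexpression was also lost once the neighbours' median was subtracted (0.18, limma adjusted p = 0.0821). In CFIm25 knockdown the interval of the log2 change was -0.07 to 0.30 (adjusted p = 0.294).

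ADGRL3 was 1.18-fold lower in CFIm68 overexpression than in control (-0.24 ± 0.09, edgeR adjusted p = 0.0417), although the 2 groups overlapped. That call was lost without control replicate 1 (adjusted p = 0.202), without control replicate 2 (0.148), without any 1 of the CFIm68 overexpression replicates (0.0762, 0.0542 and 0.132) and with limma-voom (0.0615). The direct comparison was firmer. ADGRL3 averaged 22.5 ± 1.02 CPM in CFIm68 overexpression and 31.0 ± 0.829 CPM in CFIm25 overexpression (SD, n = 3 each), 1.38-fold lower in CFIm68 overexpression with no overlap (-0.47 ± 0.09, edgeR adjusted p = 2.70e-05), and it passed under every alternative that was run. Its neighbours on chromosome 4 had a median log2 change of -0.01 in that comparison. Between CFIm68 and CFIm25 knockdown the log2 change of ADGRL3 was 0.14 with an interval of -0.04 to 0.32 (adjusted p = 0.253).

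**Figure D3:**
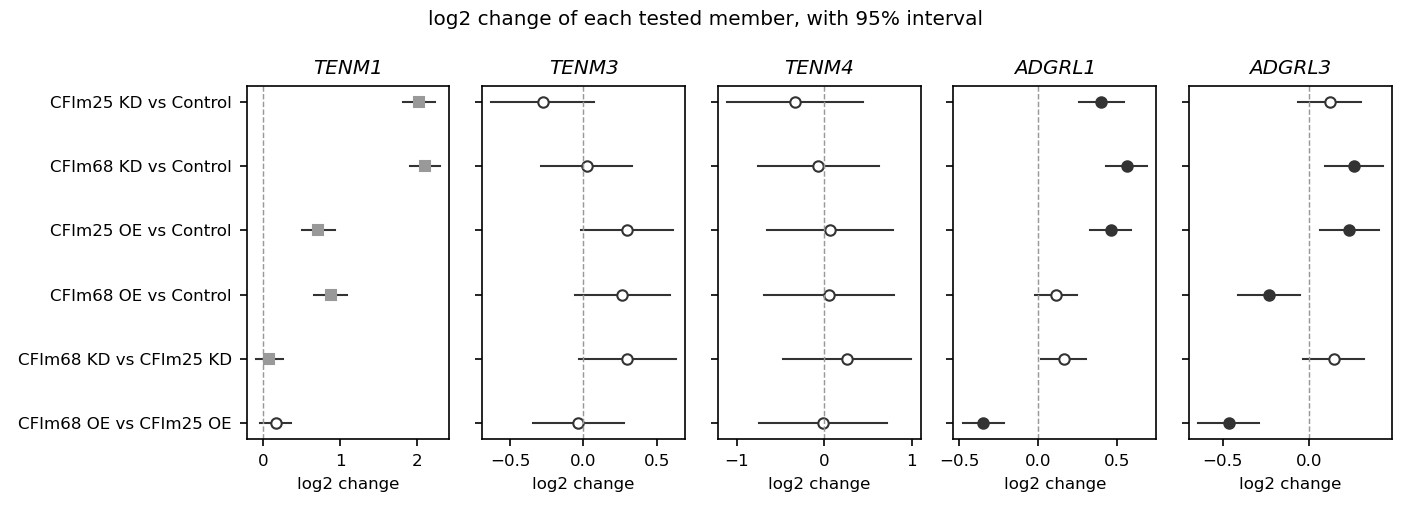
log2 change (horizontal axis) of each tested member in each of the 6 comparisons, with the 95% interval as a line. Filled circles passed (edgeR adjusted p under 0.05), open circles did not, and grey squares mark TENM1 against control and between the knockdowns, where no test is given because TENM1 was chosen on those libraries. ADGRL1 and ADGRL3 lie left of 0 in CFIm68 against CFIm25 overexpression, at -0.35 and -0.47.

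The calls of the 4 tested members other than TENM1 were set beside those of all 12080 tested genes. In CFIm25 knockdown 1 of the 4, ADGRL1, passed as higher, where 47.6% of all tested genes passed in either direction, 24.4% as higher and 23.2% as lower. In CFIm68 knockdown ADGRL1 and ADGRL3 passed as higher, where 56.4% of tested genes passed, 28.3% as higher and 28.1% as lower. In CFIm25 overexpression ADGRL1 and ADGRL3 also passed as higher, where 56.7% of tested genes passed, 27.7% as higher and 29.1% as lower. In CFIm68 overexpression ADGRL3 passed as lower, where 29.8% of tested genes passed, 14.5% as higher and 15.4% as lower. In CFIm68 against CFIm25 overexpression ADGRL1 and ADGRL3 passed as lower, where 63.7% of tested genes passed, 32.9% as higher and 30.8% as lower. Between CFIm68 and CFIm25 knockdown 0 of the 4 passed with edgeR, where 24.2% of tested genes did, 11.1% as higher and 13.2% as lower. There ADGRL1 had an unadjusted p of 0.0291, and 0 members passed with DESeq2 or limma-voom. The comparisons with control share the 3 control libraries, and nothing about the 4 genes as a group is read from these counts.

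Other genes of the pathway were taken from 3 lists, of extracellular partners, intracellular partners and related receptors. Among extracellular ligands and co-receptors, 5 of 11 passed the filter: FLRT3, the neurexin gene NRXN2 and the netrin receptor genes UNC5A, UNC5B and UNC5C. With 5 tested genes nothing about the list is read from its counts, and the shares of all tested genes are given for scale. In CFIm25 knockdown 1 rose and 1 fell (median log2 change -0.11, against 0.00 over all tested genes). Over all tested genes 24.4% passed as higher there and 23.2% as lower. NRXN2 averaged 3.003 ± 0.0545 CPM in CFIm25 knockdown, against 1.91 ± 0.389 CPM in control (0.65 ± 0.20, edgeR adjusted p = 0.00933), a call lost without control replicate 3 (adjusted p = 0.06). UNC5C averaged 10.5 ± 0.442 CPM in CFIm25 knockdown, against 14.7 ± 2.50 CPM in control (-0.48 ± 0.12, edgeR adjusted p = 0.00147). In CFIm68 knockdown 1 rose and 3 fell (median -0.43), where 28.3% of all tested genes passed as higher and 28.1% as lower. NRXN2 was again higher there (1.04 ± 0.18), and FLRT3 (-0.43 ± 0.10), UNC5C (-0.43 ± 0.11) and UNC5A (-0.81 ± 0.30, with libraries overlapping control) were lower.

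FLRT3 encodes a leucine-rich repeat ligand of ADGRL3. It averaged 17.7 ± 1.56 CPM in CFIm25 knockdown, 13.9 ± 1.63 CPM in CFIm68 knockdown, 29.1 ± 1.45 CPM in CFIm25 overexpression, 14.4 ± 2.31 CPM in CFIm68 overexpression and 18.6 ± 1.27 CPM in control. FLRT3 was 2.02-fold lower in CFIm68 than in CFIm25 overexpression (-1.01 ± 0.10, edgeR adjusted p = 7.51e-10). Over the alternatives this log2 change ran from -1.11 to -0.69 and passed in each. ADGRL3 was also lower in that comparison, where 30.8% of all tested genes passed as lower. Against control the genes moved the same way in each overexpression but opposite ways in CFIm68 knockdown, with ADGRL3 at 0.26 and FLRT3 at -0.43. In CFIm25 knockdown neither passed, with ADGRL3 at 0.12 and FLRT3 at -0.08. Each ADGRL3 call against control was lost under at least 1 alternative, as given above. FLRT3 rose against control in CFIm25 overexpression (0.65 ± 0.10, or 0.37 once its neighbours' median was subtracted) and fell in CFIm68 overexpression (-0.37 ± 0.11). That fall did not pass without CFIm68 overexpression replicate 3 (adjusted p = 0.0903). The same list had 4 higher and 0 lower in CFIm25 overexpression (median 0.60) and 3 higher and 1 lower in CFIm68 overexpression (median 0.43). Over all tested genes 27.7% were higher and 29.1% lower in CFIm25 overexpression, and 14.5% were higher and 15.4% lower in CFIm68 overexpression. With 5 tested genes nothing about the list is read from these counts. In CFIm68 overexpression the 3 higher genes became 1 without control replicate 3 or without CFIm68 overexpression replicate 2, and the 1 lower gene became 0 without CFIm68 overexpression replicate 3. With no filter on low counts, more genes of the list were tested and 2 were lower in each overexpression. UNC5B rose in both, to 44.1 ± 3.80 CPM in CFIm25 overexpression and 61.4 ± 5.92 CPM in CFIm68 overexpression, against 34.9 ± 2.83 CPM in control.

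Of 29 listed genes for intracellular partners and processing, 24 were tested. The list was chosen with earlier results of these data known and holds several related adenylyl cyclase and G protein genes. Nothing about the list is therefore read from its counts. In CFIm25 knockdown 5 rose and 8 fell (median 0.05), and the 5 became 2 without CFIm25 knockdown replicate 2 or with neighbours removed. In CFIm68 knockdown 10 rose and 8 fell (median 0.07). The small GTPase gene RHOA averaged 997 ± 7.39 CPM in CFIm25 knockdown and 981 ± 25.6 CPM in CFIm68 knockdown, against 753 ± 35.9 CPM in control (0.41 ± 0.06 and 0.38 ± 0.05, edgeR adjusted p = 1.32e-06 and 3.37e-07). ARHGEF1, an exchange factor for RHOA, averaged 57.9 ± 2.72 CPM in CFIm25 knockdown and 60.7 ± 1.84 CPM in CFIm68 knockdown, against 84.5 ± 1.98 CPM in control. The adenylyl cyclase gene ADCY9 fell in CFIm25 knockdown (-0.53 ± 0.06, or -0.26 once its neighbours' median was subtracted) and the G protein gene GNAQ fell in CFIm68 knockdown (-0.58 ± 0.07). In CFIm25 overexpression 1 rose and 13 fell (median -0.18), among them ADCY9 (-0.54 ± 0.05), the G protein gene GNA12 (-0.51 ± 0.06) and FURIN, a protease of the secretory pathway (-0.48 ± 0.06). In CFIm68 overexpression 6 rose and 1 fell (median 0.00), and FURIN rose (0.36 ± 0.06, or 0.22 once its neighbours' median was subtracted). Over all tested genes 47.6% passed in CFIm25 knockdown and 56.4% in CFIm68 knockdown, 27.7% were higher and 29.1% lower in CFIm25 overexpression, and 14.5% were higher and 15.4% lower in CFIm68 overexpression. The 1 higher gene of CFIm25 overexpression became 0 without CFIm25 overexpression replicate 1 or with neighbours removed, and 2 without CFIm25 overexpression replicate 3. The 1 lower gene of CFIm68 overexpression became 0 without control replicate 1, control replicate 3 or CFIm68 overexpression replicate 2, and 2 without control replicate 2, CFIm25 overexpression replicate 1 or CFIm25 overexpression replicate 2. FURIN thus averaged 169 ± 14.1 CPM in CFIm68 overexpression, against 94.95 ± 6.89 CPM in CFIm25 overexpression (0.83 ± 0.06, edgeR adjusted p = 1.89e-12).

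Of 29 other adhesion G protein-coupled receptor genes, 13 were tested. In CFIm25 knockdown 4 rose and 3 fell (median -0.05), in CFIm68 knockdown 5 rose and 2 fell (median 0.12), in CFIm25 overexpression 3 rose and 3 fell (median 0.24) and in CFIm68 overexpression 3 rose and 4 fell (median 0.11). The 7 of 13 that passed in each knockdown lie near the 47.6% and 56.4% of all tested genes that passed, and the counts in the overexpressions stand beside 56.7% for CFIm25 and 29.8% for CFIm68. In CFIm25 knockdown 2 rose without control replicate 1 and 1 fell without CFIm25 knockdown replicate 2, and in CFIm25 overexpression 5 rose without CFIm25 overexpression replicate 1 and 6 with neighbours removed. CELSR3, a cadherin-type adhesion receptor of planar polarity and axon tracts, averaged 139.8 ± 11.7 CPM in CFIm25 overexpression and 34.8 ± 5.01 CPM in CFIm68 overexpression, against 53.3 ± 2.95 CPM in control. ADGRG2 went the other way, at 14.98 ± 1.92 CPM in CFIm25 overexpression and 46.2 ± 1.49 CPM in CFIm68 overexpression, against 24.3 ± 1.25 CPM in control. ADGRE5, also called CD97 and on chromosome 19 like ADGRL1, was higher in CFIm68 knockdown (0.42 ± 0.06) and CFIm25 overexpression (0.38 ± 0.06), and lower in CFIm68 than in CFIm25 overexpression (-0.83 ± 0.06, edgeR adjusted p = 2.37e-12, or -0.54 once its neighbours' median was subtracted).

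**Figure D4:**
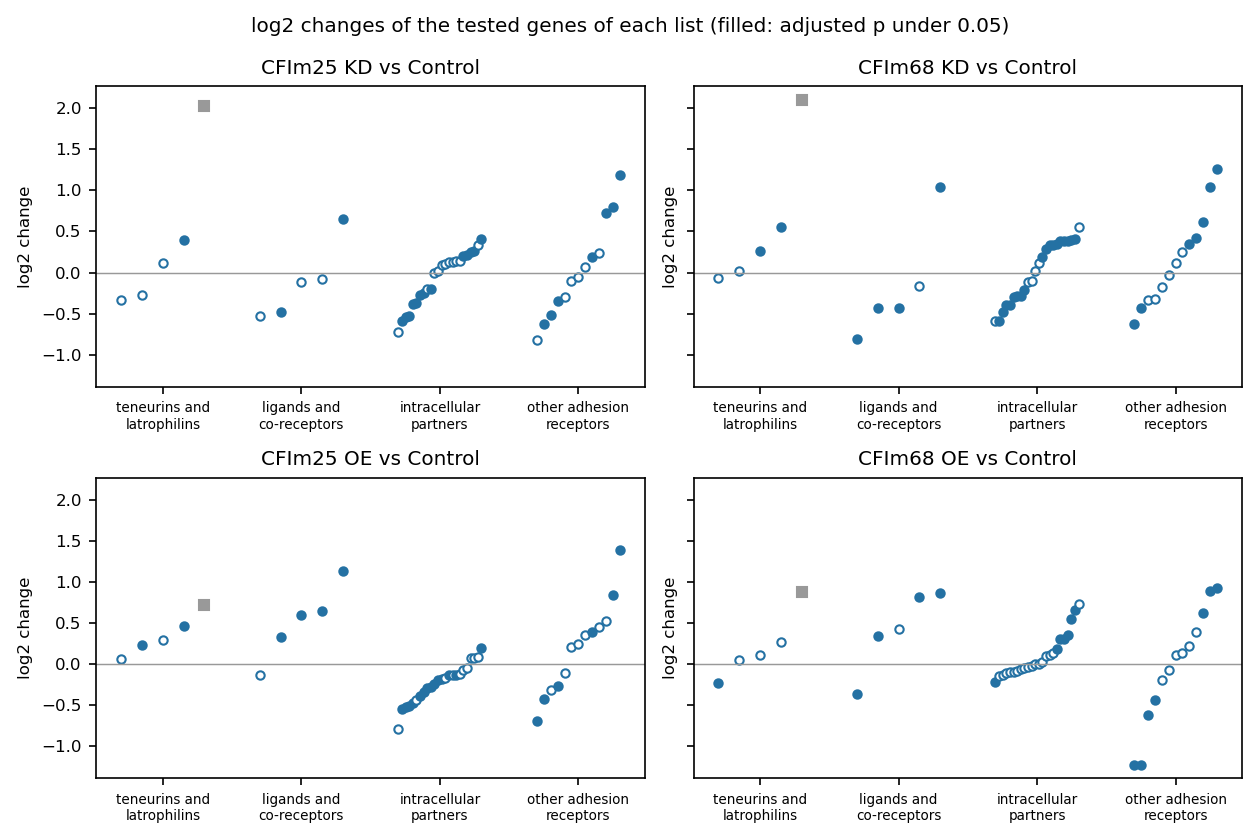
log2 change (vertical axis) of every tested gene of the 4 lists, with 1 panel per comparison with control. Filled points passed (edgeR adjusted p under 0.05), and the grey square is TENM1, for which no test is given. The tested intracellular partners lie mostly below 0 in CFIm25 overexpression, with 13 of 24 lower, where 29.1% of all tested genes were lower. The list was chosen with earlier results of these data known, so nothing about it is read from this count.

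Genes with a pattern like TENM1 were ranked by Pearson correlation of log2 CPM over the 14 libraries among the 9361 genes whose mean reached 5 CPM. The 5 closest were SERPINF1 (r = 0.98), which encodes a secreted serpin, CSPG4 (r = 0.96), a membrane proteoglycan gene, the zinc finger gene ZNF33A (r = 0.95), the deadenylase subunit gene CNOT8 (r = 0.94) and CD55 (r = 0.93), a complement regulator gene. Libraries of a group share their treatment, so this is a likeness of 5 group levels rather than of 14 independent points, and 0.481% of the genes compared had r over 0.9. SERPINF1 averaged 65.2 ± 1.79 CPM in CFIm25 knockdown, 62.2 ± 1.47 in CFIm68 knockdown, 35.5 ± 3.44 in CFIm25 overexpression, 37.6 ± 2.47 in CFIm68 overexpression and 25.3 ± 0.700 in control. CNOT8 kept the order at a much smaller amplitude, at 50.5 ± 0.199 CPM in CFIm25 knockdown and 51.1 ± 0.510 CPM in CFIm68 knockdown, against 43.2 ± 1.34 CPM in control. The genes closest to ADGRL1 were FBXW4 (r = 0.94) and SLC41A3 (r = 0.94), and those closest to ADGRL3 were CEP68 (r = 0.96) and PBRM1 (r = 0.94). TENM3 was closest to ZNF202 (r = 0.87) and PAQR6 (r = 0.86), and TENM4 to MBNL3 (r = 0.81). TENM1, ADGRL1 and ADGRL3 were not among the genes listed as closest to another member. TENM3 and TENM4 had means under 5 CPM, so they could not be listed. Only the few closest genes were kept, so likeness between members is not judged from these lists.

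**Figure D5:**
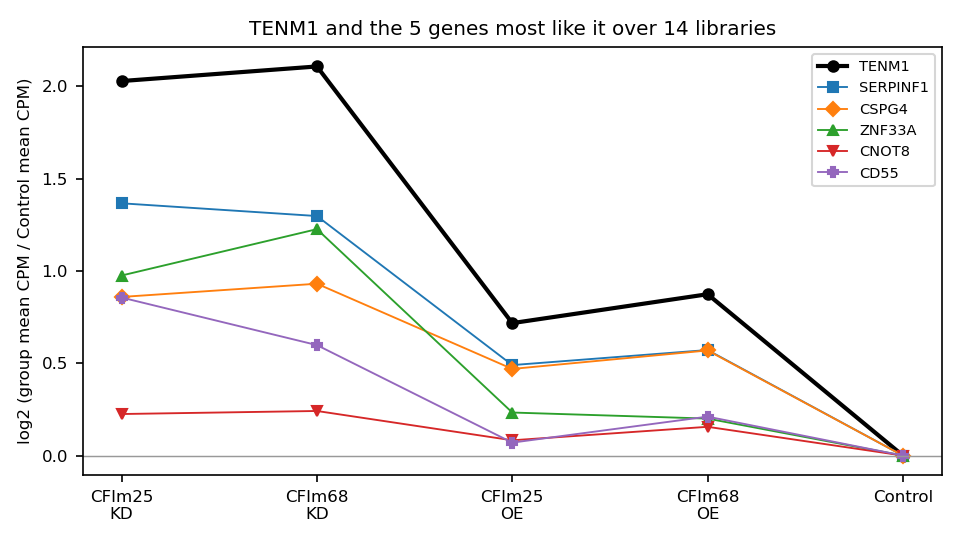
log2 of the group mean CPM over the control mean (vertical axis) for TENM1 and the 5 genes most correlated with it, with lines joining the 5 groups of 1 gene. TENM1 lies at 2.03 and 2.11 in the knockdowns, and the other 5 genes lie below it in every manipulated group.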

How the data were processed

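The file deposited by the authors gives raw counts of reads for each gene in 14 libraries. Per the submitters' processing notes, cutadapt 1.16, STAR 2.7.1a and the hg38 build were used; which program counted the reads, on which annotation and with which strand option, is not stated. Libraries were made with a stranded mRNA kit, per the labels' protocols.

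Counts were tested with edgeR 4.0.16 in R 4.3.3 on all 14 libraries with 1 coefficient per group, after filterByExpr (minimum count 10, minimum total 15) and TMM scaling. The quasi-likelihood p-values of 12080 genes were adjusted by the Benjamini-Hochberg method, with a threshold of 0.05. CPM and RPKM were computed from the counts with the scaled library sizes, and SE comes from the quasi-likelihood statistic. Of 18006 genes 2524 are at 0 in every library, and 17959 matched a gene name. Annotation is GENCODE 29.

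The members and lists were chosen with earlier results of these data known. Named pathway genes are up to 3 per list and comparison with the smallest adjusted p, of which a part is given; UNC5A in CFIm68 knockdown was added after its value was seen. One gene named by the likeness rule is not reported here. Replicates of a group correlated at r = 0.993 to 0.997 over genes and differed by more than sampling noise. The tests were checked on simulated data. Alternatives were median-ratio size factors, other filters, DESeq2 1.42.0, a block for the replicate number, limma 3.58.1 with voom, a fit to the compared groups, removal of the medians of 50 neighbouring genes, and leaving out each library. Figures used Python 3.11.15, pandas 2.3.3 and matplotlib 3.10.9.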

Additional observations from a re-analysis of the deposited data

Results flagged for a closer look

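ADGRL1 differed between the overexpression of CFIm68 and that of CFIm25 by a direct test (log2 change -0.35, edgeR adjusted p = 2.60e-05), and 3 of 3 CFIm68 libraries lay below all 3 CFIm25 libraries. ADGRL3 differed between the same groups (-0.47, edgeR adjusted p = 2.70e-05), again with 3 of 3 libraries below. In this comparison 63.7% of all tested genes passed, 30.8% as lower, so a call here is common. The share of all genes whose libraries do not overlap was not counted. The neighbours of ADGRL1 on chromosome 19 moved with it, at a median of -0.31, and once that median was subtracted the difference of ADGRL1 was -0.05 and no longer passed (limma adjusted p = 0.46). The neighbours of ADGRL3 had a median of -0.01.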

How the results depend on the processing

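The log2 changes of TENM1 against control ran from 1.92 to 2.22 in CFIm25 knockdown, 2.001 to 2.301 in CFIm68 knockdown, 0.61 to 0.91 in CFIm25 overexpression and 0.77 to 1.07 in CFIm68 overexpression over the 22 alternatives. The number of members past the threshold includes TENM1, whose part in it against control and between the knockdowns is no test, since TENM1 was chosen there. In CFIm68 overexpression against control it was 2, where 29.8% of all tested genes passed. It was 1 with limma-voom, 1 to 2 leaving out single libraries and up to 3 over the other alternatives. In CFIm25 overexpression against control it was 3, and 2 to 4 leaving out single libraries, where 56.7% of all tested genes passed. Between the knockdowns it was 1 in place of 0 with only the compared groups fitted, and 0 to 1 leaving out single libraries. There 24.2% of all tested genes passed. In CFIm68 against CFIm25 overexpression, where 63.7% passed, it was 1 in place of 2 once the neighbours' medians were subtracted. The number of genes past the threshold between the knockdowns was 1465 without CFIm25 knockdown replicate 1, in place of 2929, and 1465 to 3344 leaving out single libraries. The cause of these shifts was not tested.

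Signs turned only for values that passed in neither setting. Leaving out single libraries, the log2 change of TENM3 ran from -0.050 to 0.11 in CFIm68 knockdown and from -0.18 to 0.062 in CFIm68 against CFIm25 overexpression. That of TENM4 ran from -0.32 to 0.25 in CFIm68 knockdown, from -0.19 to 0.38 in CFIm25 overexpression, from -0.20 to 0.37 in CFIm68 overexpression, from -0.059 to 0.91 between the knockdowns and from -0.24 to 0.18 between the overexpressions. ADGRL3 ran from -0.015 (without CFIm25 knockdown replicate 2) to 0.22 in CFIm25 knockdown. STAG2 ran from -0.047 to 0.090 in CFIm25 knockdown and from -0.025 to 0.11 in CFIm68 overexpression. Once the neighbours' medians were subtracted, TENM4 stood at -0.011 and STAG2 at -0.049 in CFIm68 overexpression.

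Same-numbered libraries of different groups deviated together only weakly, with r over 0.1 in 3 of 26 same-numbered pairs (highest 0.171), against 0 of 52 pairs with other numbers (highest 0.0838). The median r was 0.0204 for same-numbered pairs and -0.0058 for the others. No label states a pairing, so the main fit used no block for the replicate number. What the same-numbered libraries share was not tested. With the replicate number as a block, no call of a member changed, STAG2 stood at -0.0066 in CFIm25 knockdown, and the intracellular list had 2 genes lower in CFIm68 overexpression in place of 1. Of 792 recomputed list counts 753 were within 1.5 times of the reported ones, 29 were lower and 10 higher. Of 1122 recomputed changes of named pathway genes 1111 kept their direction and call, and 11 kept the direction without passing. Those genes were picked for the smallest adjusted p in these same libraries, so much of that stability was built in. Depth limits TENM2 and TENM4, and CFIm25 knockdown has 2 libraries.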
